A study of Canis lupus with 20 samples.

Results

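DECR1, AMPD1, UCHL1, TRIO and RIIAD1 are 5 genes whose signal in dog heart lay near one level in most samples and several log2 units away from it in a few. They were chosen from these same arrays for that spread within groups, so the spread is described below and not tested. In all, 12 probe sets carry 1 of the 5 symbols, of 42924 probe sets that are not controls, and 10 of the 12 were among the 30047 probe sets tested. The 5 genes, all with at least 1 tested probe set, stand among 15115 genes with a symbol of their own, of which 11423 were tested.

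Dogs described as normal had the right kidney removed (uninephrectomy) or a sham operation, with 6 dogs assigned to each, and the heart was taken 12 weeks later. The 4 groups were the left atrium of uninephrectomized dogs, the left atrium of sham-operated dogs, the left ventricle of uninephrectomized dogs and the left ventricle of sham-operated dogs, with 5 samples each and 1 Affymetrix canine array per sample. Arrays are named here by their group and the number in their label. The labels used here give no age, sex or breed, and they do not say which atrial and ventricular samples came from the same dog.

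DECR1 encodes the mitochondrial 2,4-dienoyl-CoA reductase, an auxiliary enzyme that lets the beta-oxidation of polyunsaturated fatty acids go on past their double bonds. AMPD1 is the muscle isoform of AMP deaminase, which turns AMP into IMP in the purine nucleotide cycle and is best known from skeletal muscle. UCHL1 (also called PGP9.5) is a ubiquitin C-terminal hydrolase that is abundant in neurons and widely used to stain nerves. TRIO is a guanine nucleotide exchange factor known from the shaping of the actin cytoskeleton and from axon guidance. RIIAD1 is a little studied protein with a domain like that by which the regulatory subunit RII of protein kinase A pairs and is anchored. The heart draws most of its ATP from fatty acid oxidation, the setting in which DECR1 works, and UCHL1 in this organ is known mainly from its nerves and conduction tissue.

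Signals are the deposited log2 values of a probe set, a group of short probes against one transcript or gene. The probe set of RIIAD1, 1 of the 2 of DECR1, the dimmer one of UCHL1 and 4 of the 6 of TRIO, among them the one that switched, have names that end in "_s_at" or "_a_at", designs that can match several transcripts. Array medians lay between 2.33 and 2.39 and upper quartiles between 5.10 and 5.53. The files hold no detection call, so whether a value near log2 2 stood above background was not tested, and folds against such values are folds of signal. Marker genes matched the labelled chambers: the summed signal of 8 cardiomyocyte genes was log2 16.3 to 16.8 on all arrays, that of 5 measured atrial genes was 15.2 to 15.6 in atrium and 11.6 to 12.8 in ventricle, and that of 3 measured ventricular genes was 5.80 to 8.94 in atrium and 15.1 to 15.6 in ventricle. The gap between 3' and more 5' control probe sets, a sign of RNA integrity, averaged 1.10 ± 0.26 log2 in uninephrectomized atrium, 1.19 ± 0.19 in sham atrium, 1.14 ± 0.15 in uninephrectomized ventricle and 1.42 ± 0.27 in sham ventricle (SD, n = 5 each).

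**Figure D1:**
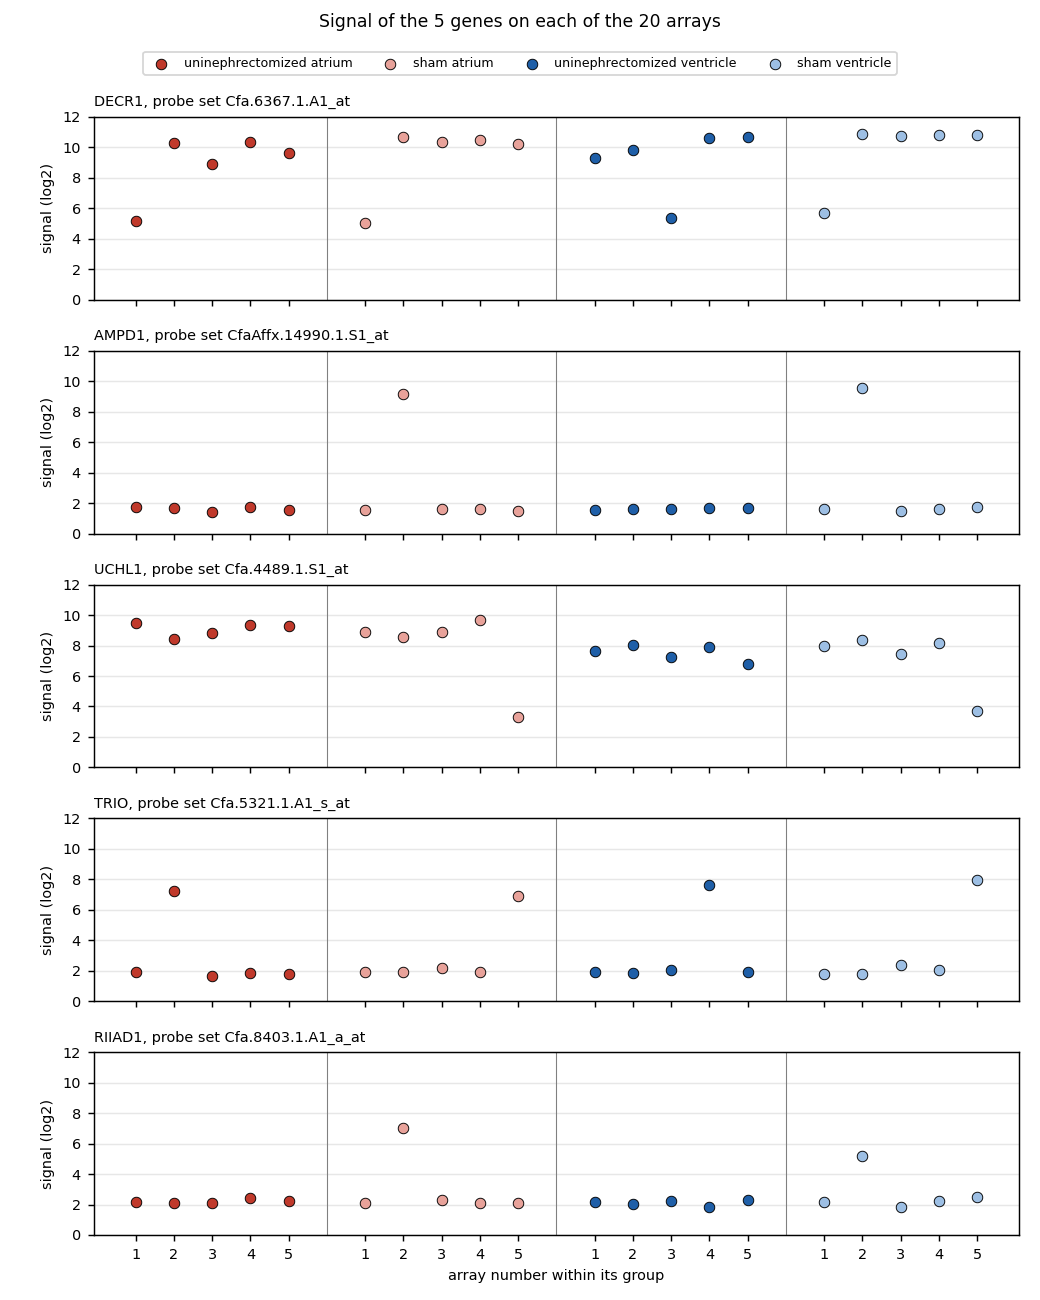
Signal (log2) of the widest-ranging probe set of each gene on each of the 20 arrays. Each point is 1 array, and columns are uninephrectomized atrium, sham atrium, uninephrectomized ventricle and sham ventricle with the array numbers of the labels. DECR1 is low on 4 arrays, 1 in each group, AMPD1 and RIIAD1 are high on sham arrays 2 of both chambers, UCHL1 is low on sham arrays 5 of both chambers, and TRIO is high on 4 arrays, 1 in each group.

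DECR1, the fatty acid oxidation enzyme of the set, was low on 1 array of each group and high on the other 16. In the probe set with the wider spread, uninephrectomized atrial arrays 1 to 5 read 5.20, 10.28, 8.89, 10.37 and 9.62, and sham atrial arrays 1 to 5 read 5.01, 10.69, 10.35, 10.48 and 10.20. Array 1 of each atrial group was the low one, and the ranges of the groups overlapped. Uninephrectomized ventricular arrays 1 to 5 read 9.29, 9.85, 5.40, 10.62 and 10.71, and sham ventricular arrays 1 to 5 read 5.69, 10.88, 10.75, 10.83 and 10.80. Here uninephrectomized array 3 and sham array 1 were the low ones, and the ranges overlapped again. The 4 low arrays read 5.01 to 5.69 and the other 16 read 8.89 to 10.88, a difference of means of -4.97 (31.3-fold lower). No array fell into the 3.20 log2 units between 5.69 and 8.89.

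The other DECR1 probe set was low on the same 4 arrays. It read 6.49 on uninephrectomized atrial array 1, 5.49 on sham atrial array 1, 6.72 on uninephrectomized ventricular array 3 and 6.92 on sham ventricular array 1. Its other 16 values ran from 9.41 to 11.37, and the difference of means was -4.32 (20-fold lower). The deviations of both DECR1 probe sets from their group means had a Pearson correlation of 0.996 over 20 arrays, as a description. Both sets of probes thus put the same arrays apart. The low arrays had small 3' gaps: 0.93 on uninephrectomized atrial array 1, 0.97 on sham atrial array 1, 0.94 on uninephrectomized ventricular array 3 and 1.11 on sham ventricular array 1, the last 3 being the smallest of their groups. Uninephrectomized atrial arrays 2 and 3 had gaps of 0.90 and 0.91 and DECR1 signals of 10.28 and 8.89. The part of the gap in the low DECR1 signals was not tested.

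AMPD1, the muscle AMP deaminase, was at the low end of the array's scale on 18 arrays and bright on the remaining pair. Its only probe set read 1.71, 1.69, 1.38, 1.74 and 1.57 on uninephrectomized atrial arrays 1 to 5, and 1.56, 9.14, 1.63, 1.58 and 1.51 on sham atrial arrays 1 to 5. It read 1.53, 1.62, 1.58, 1.69 and 1.65 on uninephrectomized ventricular arrays 1 to 5, and 1.60, 9.57, 1.46, 1.63 and 1.76 on sham ventricular arrays 1 to 5. Sham array 2 was high in both chambers, and the remaining sham values overlapped the uninephrectomized ones. The means of the 2 high arrays and of the other 18, which ran from 1.38 to 1.76, differed by 7.75 log2 units (215-fold). AMPD1 passed the filter on low signal only through that pair, since its mean was 2.38 over all arrays and 1.61 over the other 18, with the filter at 1.87.

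Since AMPD1 is known from skeletal muscle, 16 skeletal muscle genes were read beside it. Of the 13 that were measured, 8 (MYH1, MYH2, MYH4, TNNT3, MYLPF, ACTN3, MYBPC2 and MYOG) stayed below log2 3 on all arrays. TNNI2 ran from 2.31 to 3.25, CASQ1 from 1.82 to 3.44 and ATP2A1 from 3.87 to 4.98. On sham atrial array 2 and sham ventricular array 2, CASQ1 read 2.56 and 3.44, the highest value of each chamber. TNNI2 read 2.41 and 2.65 on that pair, the lowest sham value of each chamber, and ATP2A1 read 4.92 and 4.01. TNNT1 was bright on all arrays, at 9.16 to 10.43. MYBPC1, the slow skeletal isoform of myosin binding protein C, ran from 2.05 to 11.45 and was highest on uninephrectomized atrial arrays 1, 2 and 4 (10.43, 11.45 and 10.95), and it read 3.93 on sham atrial array 2 and 2.05 on sham ventricular array 2. TNNT1 and MYBPC1 made up most of the summed signal. The summed signal of the 13 was 9.56 to 11.80 in uninephrectomized atrium, 9.71 to 10.53 in sham atrium, 9.95 to 10.34 in uninephrectomized ventricle and 9.95 to 10.51 in sham ventricle. On sham atrial array 2 it was 9.80 and on sham ventricular array 2 it was 10.35, inside the range of the other sham arrays of each chamber.

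RIIAD1, the protein with the RII-like domain, was high on the same pair of arrays as AMPD1. Its only probe set read 2.14, 2.11, 2.10, 2.42 and 2.26 on uninephrectomized atrial arrays 1 to 5, and 2.08, 7.05, 2.30, 2.07 and 2.11 on sham atrial arrays 1 to 5. It read 2.20, 2.03, 2.22, 1.85 and 2.27 on uninephrectomized ventricular arrays 1 to 5, and 2.18, 5.21, 1.84, 2.24 and 2.52 on sham ventricular arrays 1 to 5. Sham array 2 was again the high one in both chambers, and the remaining sham values overlapped the uninephrectomized ones. The means of the 2 high arrays and of the other 18, which ran from 1.84 to 2.52, differed by 3.97 log2 units (15.6-fold).

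UCHL1, the neuronal ubiquitin hydrolase, was bright on 18 arrays and low on sham array 5 of both chambers. Its bright probe set read 9.47, 8.46, 8.81, 9.33 and 9.32 on uninephrectomized atrial arrays 1 to 5, and 8.90, 8.59, 8.91, 9.71 and 3.34 on sham atrial arrays 1 to 5. It read 7.64, 8.04, 7.22, 7.93 and 6.77 on uninephrectomized ventricular arrays 1 to 5, and 7.95, 8.39, 7.47, 8.17 and 3.71 on sham ventricular arrays 1 to 5. Apart from the low array, the sham values overlapped the uninephrectomized ones in each chamber. The 2 low arrays and the other 18, which ran from 6.77 to 9.71, differed in their means by -4.87 (29.2-fold lower).

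The other UCHL1 probe set was dim throughout, between 2.21 and 3.47. It read 2.93, 2.49, 2.69, 3.17 and 3.26 on uninephrectomized atrial arrays 1 to 5, and 2.96, 2.90, 2.90, 3.47 and 2.25 on sham atrial arrays 1 to 5. Sham atrial array 5 was again the lowest of the atrial arrays, but at 2.25 with 2.49 on the next, not by several units. In the ventricle it read 2.39, 2.40, 2.36, 2.62 and 2.21 on uninephrectomized arrays 1 to 5, and 2.43, 2.47, 2.62, 2.72 and 2.60 on sham arrays 1 to 5, where array 5 did not stand apart. The deviations of both UCHL1 probe sets had a Pearson correlation of 0.613 over 20 arrays.

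Neuron and Schwann cell genes were read beside UCHL1. Of 18 such genes 11 were measured, and TH, DBH, CHGA and PRPH stayed below log2 3 on all arrays. The summed signal of the 11 was 6.31 to 6.73 in uninephrectomized atrium, 6.24 to 9.30 in sham atrium, 6.02 to 6.17 in uninephrectomized ventricle and 6.00 to 6.16 in sham ventricle. The highest sum, 9.30, was on sham atrial array 4, where UCHL1 was also highest at 9.71, with 9.47 on the next array. On that array STMN2 read 8.86, NEFL 6.36, CHGB 4.68 and ELAVL4 3.32, each its highest value of all arrays. TUBB3, NEFH, TH, DBH, CHGA, GAP43 and PRPH, at 2.18 to 3.32 there, were not at their highest. On all other arrays NEFL, CHGB and ELAVL4 stayed below log2 3. The low UCHL1 arrays had sums of 6.46 (sham atrial array 5) and 6.16 (sham ventricular array 5), within the range of the other arrays of their chamber. In ventricle none of the 11 read above 3.70 on any array, so low that a fall of several log2 units could not have shown there. In bulk tissue fewer cells of a type and less RNA per cell cannot be told apart.

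TRIO, the exchange factor, has 6 probe sets on the array, and 1 of them was on or off. This on-off probe set read 1.90, 7.22, 1.66, 1.83 and 1.78 on uninephrectomized atrial arrays 1 to 5, and 1.90, 1.93, 2.18, 1.91 and 6.93 on sham atrial arrays 1 to 5. It read 1.91, 1.86, 2.06, 7.60 and 1.92 on uninephrectomized ventricular arrays 1 to 5, and 1.77, 1.81, 2.36, 2.02 and 7.98 on sham ventricular arrays 1 to 5. Each group had 1 high array: array 2 in uninephrectomized atrium, array 5 in sham atrium, array 4 in uninephrectomized ventricle and array 5 in sham ventricle. The means of these 4 arrays and of the other 16, which ran from 1.66 to 2.36, differed by 5.50 log2 units (45.4-fold).

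The other TRIO probe sets did not switch by several log2 units on the 4 arrays, but some moved with it in part. Their deviations correlated with those of the on-off probe set at 0.53 (brightest), 0.49 (middle signal) and 0.61 (dim). For the 2 that were not tested the correlations were 0.15 and -0.02. The brightest was high on all arrays, from 7.15 to 8.28, with an SD about the group means of 0.27. A probe set of middle signal ran from 3.56 to 5.98 with an SD of 0.57. Of the 4 arrays on which the on-off probe set was high, only uninephrectomized atrial array 2 was also the highest of its group in both of these probe sets, at 8.28 and 5.98. Sham atrial array 5 was the highest of its group in the brightest alone, at 7.51. Uninephrectomized ventricular array 4 was so in that of middle signal alone, at 5.67 and level with array 3. Sham ventricular array 5 was the highest in neither. A dim probe set ran from 1.63 to 2.68. It was highest of its group on uninephrectomized atrial array 2 (1.93) and uninephrectomized ventricular array 4 (2.67), but not on the sham arrays 5 (1.95 in atrium and 2.55 in ventricle). The last 2, at 1.46 to 1.87 and at 1.41 to 1.84, lay below the filter on low signal and were not tested.

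**Figure D2:**
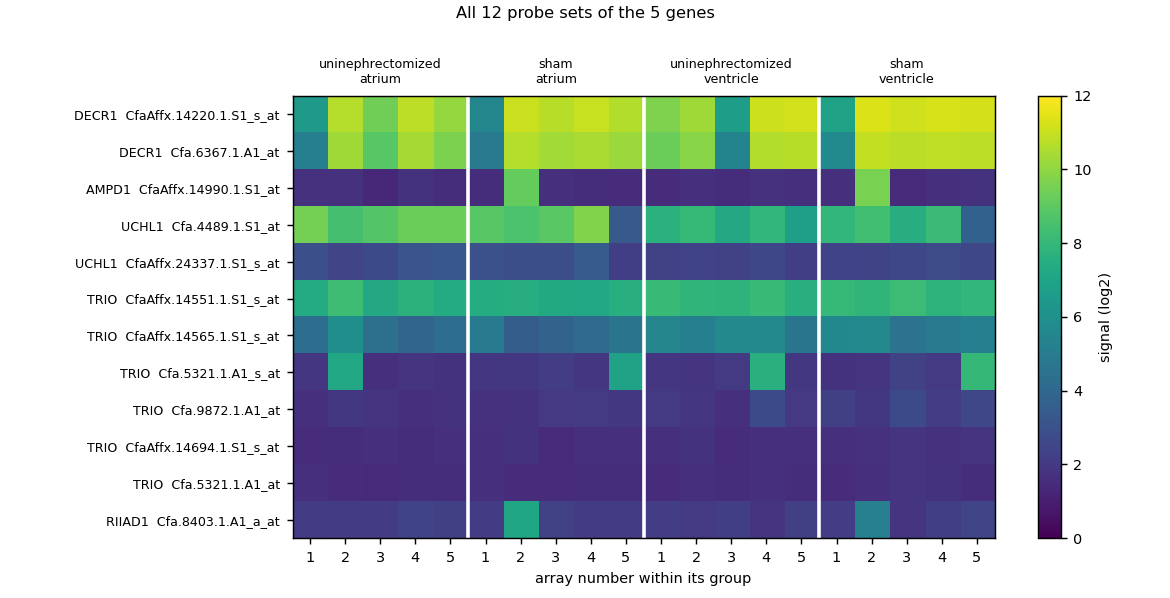
Signal (log2, colour) of all 12 probe sets of the 5 genes (rows) on the 20 arrays (columns, in 4 groups of 5 split by white lines: uninephrectomized atrium, sham atrium, uninephrectomized ventricle, sham ventricle). Both DECR1 probe sets are dark on the same 4 arrays, while the switch between low and high shows in 1 of the 2 UCHL1 and in 1 of the 6 TRIO probe sets. The TRIO rows are, from the top, the brightest, the one of middle signal, the on-off one, the dim one and the 2 that were not tested.

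The sham arrays set apart were those of 3 numbers. DECR1 separated sham arrays 1, AMPD1 and RIIAD1 sham arrays 2, and UCHL1 and TRIO sham arrays 5, low for UCHL1 and high for TRIO. In sham dogs the array number was the same in both chambers for all 5 genes. In uninephrectomized dogs AMPD1, RIIAD1 and UCHL1 had no array apart, and the arrays apart for DECR1 (atrial 1 and ventricular 3) and for TRIO (atrial 2 and ventricular 4) had different numbers in the chambers. A sham number lay at least 3 log2 units from all other arrays of its group, in the same direction in both chambers, in 11 of 30047 tested probe sets (0.0366%). Of these, 5 were probe sets of the described genes: both of DECR1 and those named above for AMPD1, UCHL1 and TRIO. RIIAD1 met that distance in the atrium, but its ventricular value of 5.21 was 2.69 above the next.

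Against all tested probe sets, the spread of the 5 genes was at the upper end, which is what they were chosen for. The SD about the 4 group means was 2.27 and 2.00 for the DECR1 probe sets, 2.46 for AMPD1, 1.65 for UCHL1, 2.47 for TRIO and 1.30 for RIIAD1. The median over all tested probe sets was 0.170, and the 99th percentile was 0.920. Counting the probe set itself, 6 tested probe sets had an SD at least as large as that of TRIO, 7 as that of AMPD1, 9 as the wider one of DECR1, 37 as that of UCHL1 and 92 as that of RIIAD1. A range of at least 4 log2 units within some group was found in 177 probe sets (0.589%), and one of at least 2 in 1272 (4.23%). The other 4 tested probe sets of UCHL1 and TRIO had SDs from 0.26 to 0.57, and the 95th percentile of all was 0.540.

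**Figure D3:**
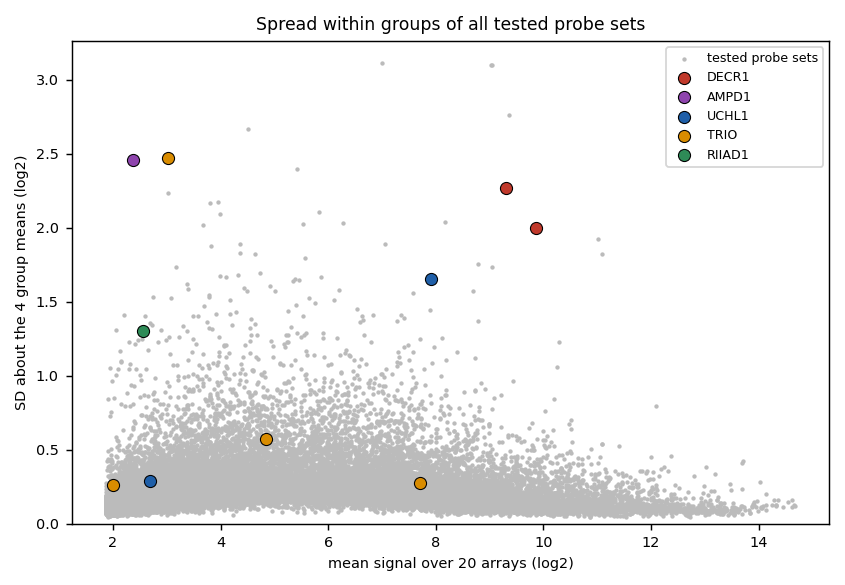
SD about the 4 group means (log2, vertical axis) against the mean signal over 20 arrays (log2, horizontal axis) for the 30047 tested probe sets (grey) and the 10 tested probe sets of the 5 genes (colours). Probe sets with SDs of 1.30 to 2.47 include both DECR1 probe sets and 1 of each other gene, while 4 probe sets of UCHL1 and TRIO lie among the grey points at 0.26 to 0.57.

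The levels by group follow from these arrays. DECR1 (the wider probe set) averaged 8.87 ± 2.14 in uninephrectomized atrium, 9.35 ± 2.43 in sham atrium, 9.17 ± 2.19 in uninephrectomized ventricle and 9.79 ± 2.29 in sham ventricle (SD, n = 5 each). TRIO (the on-off probe set) averaged 2.88 ± 2.43, 2.97 ± 2.21, 3.07 ± 2.53 and 3.19 ± 2.69 in the same order of groups. For both genes sham ventricle had the highest and uninephrectomized atrium the lowest mean, and all neighbours in the order differed by less than 1 SD. AMPD1 averaged 1.62 ± 0.15 in uninephrectomized atrium, 3.09 ± 3.39 in sham atrium, 1.62 ± 0.06 in uninephrectomized ventricle and 3.21 ± 3.56 in sham ventricle. RIIAD1 averaged 2.21 ± 0.14, 3.12 ± 2.20, 2.11 ± 0.17 and 2.80 ± 1.37 in that order of groups. For AMPD1 and RIIAD1 the sham means were the higher ones in both chambers, with SDs larger than the distance to the uninephrectomized means. UCHL1 (the bright probe set) averaged 9.08 ± 0.43 in uninephrectomized atrium, 7.89 ± 2.58 in sham atrium, 7.52 ± 0.53 in uninephrectomized ventricle and 7.14 ± 1.95 in sham ventricle, the one gene of the 5 with both atrial means above both ventricular ones.

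The first comparison asks whether loss of a kidney changed these genes in the left atrium. None of the 10 tested probe sets was called at an adjusted p under 0.05, where the fit called 0 of 30047 probe sets (0%). In limma, uninephrectomized minus sham atrium was -0.47 ± 1.33 log2 (SE) for DECR1, with an adjusted p of 0.967 and a 95% interval from -3.26 to 2.32. AMPD1 differed by -1.47 ± 1.44 (adjusted p 0.874) and RIIAD1 by -0.91 ± 0.76 (adjusted p 0.840), and with both sham arrays 2 left out, a choice made after the data were seen, by 0.047 and 0.069. UCHL1 differed by 1.19 ± 0.97 (adjusted p 0.834) and TRIO by -0.09 ± 1.45 (adjusted p 0.996). With sham atrial array 5 left out these became 0.051 for UCHL1 and 0.90 for TRIO. Without uninephrectomized atrial array 2 TRIO differed by -1.18, each group having 1 high array. DECR1 differed by 0.45 without uninephrectomized atrial array 1, by -1.56 without sham atrial array 1 and by 0.064 ± 1.11 with the 3' gap as a covariate. For all 5 genes leaving out 1 array thus moved the difference by over 1.5 times or turned its sign. Over all probe sets 2010 had an unadjusted p under 0.05, and the smallest adjusted p was 0.631.

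In the left ventricle the same comparison also called none of the 10, against 0 of 30047 probe sets (0%). Uninephrectomized minus sham ventricle was -0.62 ± 1.33 for DECR1 (adjusted p 0.957, 95% interval -3.41 to 2.17), and it turned to 1.08 ± 1.23 with the 3' gap as a covariate (adjusted p 0.999), where the gap averaged 1.14 in uninephrectomized and 1.42 in sham ventricle. It was -1.59 ± 1.44 for AMPD1 (adjusted p 0.851) and -0.69 ± 0.76 for RIIAD1 (adjusted p 0.890). UCHL1 differed by 0.38 ± 0.97 (adjusted p 0.966) and TRIO by -0.12 ± 1.45 (adjusted p 0.994). Leaving out both sham arrays 5 gave -0.48 for UCHL1 and 1.08 for TRIO, and leaving out both sham arrays 2 gave AMPD1 a difference of 0.00084, all still short of the threshold. The standard errors of the 5 wide probe sets, 0.76 to 1.45, stand against a median of 0.107 over all probe sets, so differences of 1 log2 unit were within their error. In this comparison 2005 probe sets had an unadjusted p under 0.05, and the smallest adjusted p was 0.242.

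**Figure D4:**
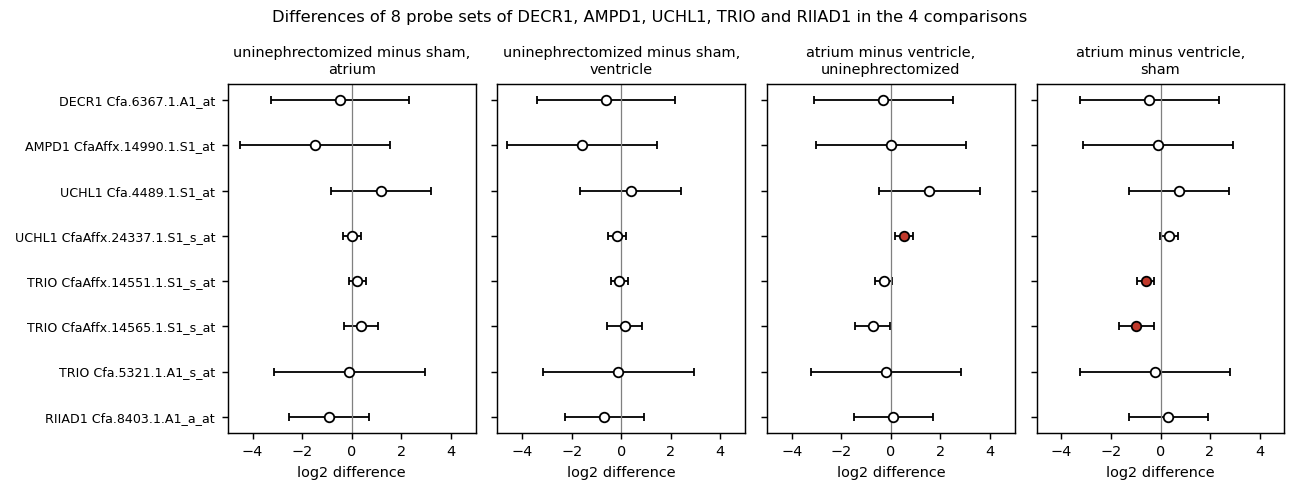
Log2 difference of 8 of the 10 tested probe sets in the 4 comparisons (panels: uninephrectomized minus sham in atrium and in ventricle, atrium minus ventricle in uninephrectomized and in sham dogs), with 95% intervals from limma, n = 5 arrays per group. Red points have an adjusted p under 0.05: the dim UCHL1 probe set (0.52) in uninephrectomized dogs, and the brightest TRIO probe set (-0.59) and that of middle signal (-0.97) in sham dogs.

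Between chambers of uninephrectomized dogs, UCHL1 was the gene that passed the test, in its dim probe set. It averaged 2.91 ± 0.32 in atrium and 2.39 ± 0.15 in ventricle, a difference of 0.52 ± 0.17 (adjusted p 0.0321 in limma). This was 1 of the 10 probe sets, where 27.3% of all tested probe sets were called (14.7% higher and 12.5% lower in atrium), so the 1 of 10 lay below that share. The bright probe set was 8.46 to 9.47 in atrium and 6.77 to 8.04 in ventricle, so its groups did not overlap. Such separation was not counted over all tested probe sets. The difference of the bright probe set, 1.56 ± 0.97, had an adjusted p of 0.255 with the spread shared over all 4 groups, which takes in the sham arrays 5. It had an adjusted p of 0.00183 with these 2 groups alone, and of 0.000389 with both sham arrays 5 left out after the data were seen. The call of the dim probe set was lost on leaving out any 1 of 7 arrays, with adjusted p up to 0.0882: atrial arrays 1, 4 and 5 and ventricular arrays 1, 2, 3 and 5.

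The remaining genes showed no called difference between the chambers of uninephrectomized dogs. TRIO differed by -0.29 ± 0.16 in its brightest probe set (adjusted p 0.199) and by -0.74 ± 0.34 in that of middle signal (adjusted p 0.113). The probe set of middle signal passed the threshold with quantile normalization (adjusted p 0.0429) and with the 3' gap as a covariate (adjusted p 0.00936). With uninephrectomized atrial array 2 left out both passed, the brightest at -0.47 (adjusted p 0.0123) and that of middle signal at -1.08 (adjusted p 0.00693). DECR1 differed by -0.30 ± 1.33, AMPD1 by 0.0041 ± 1.44, RIIAD1 by 0.10 ± 0.76 and the on-off probe set of TRIO by -0.19 ± 1.45.

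Between chambers of sham dogs, 20.8% of all probe sets were called (11.2% higher and 9.62% lower in atrium). Of the 10 tested here 2 were called, near that share, and both were TRIO probe sets, lower in atrium. The brightest read 7.44, 7.48, 7.28, 7.15 and 7.51 on atrial arrays 1 to 5, and 8.02, 7.86, 8.21, 7.77 and 7.94 on ventricular arrays 1 to 5. The groups did not overlap, a separation that was not counted over all tested probe sets. The difference was -0.59 ± 0.16 (adjusted p 0.0143 in limma), a call kept on leaving out any 1 of the 20 arrays. The probe set of middle signal read 4.88, 3.56, 3.84, 4.19 and 4.63 on atrial arrays 1 to 5, and 5.58, 5.65, 4.59, 4.94 and 5.20 on ventricular arrays 1 to 5. These groups overlapped, with a difference of -0.97 ± 0.34 (adjusted p 0.0471), and the call was lost in 14 of the 20 fits that left out 1 array (adjusted p up to 0.122). Those 14 arrays were sham atrial 2, 3 and 4, uninephrectomized atrial 1, 3 and 5, sham ventricular 1, 2, 4 and 5, and uninephrectomized ventricular 1 to 4.

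The other genes were not called in sham dogs in the fit without pairing. DECR1 differed by -0.45 ± 1.33 (adjusted p 0.856), UCHL1 by 0.75 ± 0.97 (adjusted p 0.646), AMPD1 by -0.12 ± 1.44, RIIAD1 by 0.32 ± 0.76 and the on-off probe set of TRIO by -0.22 ± 1.45. Sham arrays of the same number deviated together in both chambers, and with the number as a replicate block the difference was taken within each pair. With a fixed block DECR1 was lower in atrium in both probe sets, by -0.45 ± 0.09 (the wider one, adjusted p 0.0152) and -0.61 ± 0.17 (the other, adjusted p 0.0473). With a random block neither was called, at -0.45 ± 1.23 (adjusted p 0.838) and -0.61 ± 1.08 (adjusted p 0.741). That fit also joined equal numbers of uninephrectomized dogs, which were not taken as pairs. It used 1 correlation, 0.093, for all probe sets, and so took up little of the sham pairing. With the 3' gap as a covariate and no block the wider one differed by 0.96 ± 1.19 (adjusted p 0.627). The pair of arrays 1 is low in both chambers, so its distance from the others drops out of the fixed-block fit. TRIO was lower in atrium in 3 probe sets with the fixed block, the brightest (adjusted p 0.00726), that of middle signal (adjusted p 0.0235) and the dim one (-0.44 ± 0.10, adjusted p 0.0242). The bright UCHL1 probe set still missed the threshold with the fixed block (adjusted p 0.112), and passed it, at 1.03 ± 0.30, with both sham arrays 5 left out (adjusted p 0.0303). The dim UCHL1 probe set averaged 2.89 ± 0.44 in sham atrium and 2.57 ± 0.12 in sham ventricle, a difference of 0.33 ± 0.17 (adjusted p 0.199). It passed at 0.49 without sham atrial array 5 (adjusted p 0.0281) and at 0.50 without both sham arrays 5 (adjusted p 0.0473). Whether the chamber difference of any of these genes itself differed between uninephrectomized and sham dogs was not tested.

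Genes that work beside DECR1 were read next to it. Of 19 other genes of fatty acid beta-oxidation, 16 were tested, with SDs about the group means of at most 0.408 (ACADS), against 2.27 for DECR1. None was called after uninephrectomy in either chamber. In atrium against ventricle 13 were lower and 0 higher in uninephrectomized dogs, and again 13 and 0 in sham dogs. Of all tested probe sets 12.5% and 9.62% were lower. The median differences of the list were -0.48 and -0.42, and those of all tested probe sets were -0.017 and -0.0057. Here and for the lists below, such shares count probe sets of any signal above the filter, while the list counts are of genes. The SDs set against those of the 5 genes, here and below, are no test, since the 5 were chosen for their spread. The 5 genes also stand by their widest probe set, and a list gene by its brightest. The brightest TRIO probe set, with an SD of 0.27, did not switch, so a switch in another probe set of a list gene would not show. ECI1, which shifts double bonds in the same auxiliary pathway as DECR1, differed by -1.83 ± 0.22 in uninephrectomized and -1.68 ± 0.22 in sham dogs. ECHS1, the short-chain enoyl-CoA hydratase, differed by -1.10 ± 0.19 and -1.0 ± 0.19. In sham dogs the DECR1 probe sets differed by -0.45 and -0.61, beside that median of -0.42.

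Of 22 genes of the purine nucleotide cycle and of AMP handling beside AMPD1, 16 were tested and none was called after uninephrectomy. In atrium against ventricle 5 were higher and 3 lower in uninephrectomized dogs, and 2 higher and 2 lower in sham dogs. Of all tested probe sets 27.3% were called in uninephrectomized and 20.8% in sham dogs, so the 4 of 16 in sham dogs were near that share. ADSS1, the muscle adenylosuccinate synthase that acts next to AMP deaminase in the cycle, differed by -1.36 ± 0.17 in uninephrectomized and -1.24 ± 0.17 in sham dogs. ADSL, the lyase that closes the cycle, differed by -0.54 ± 0.12 and -0.65 ± 0.12, while ADSS2, the other synthase, was higher by 0.61 ± 0.12 and 0.52 ± 0.12. The widest SD in the list was 0.585 (XDH, xanthine dehydrogenase), against 2.46 for AMPD1.

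Of 12 deubiquitinase and ubiquitin genes beside UCHL1, 9 were tested, none was called after uninephrectomy, and 1 was higher and 2 lower in atrium in each kind of dog. Of all tested probe sets 27.3% were called in uninephrectomized dogs and 20.8% in sham dogs. UCHL3, a hydrolase of the same family, differed by -0.81 ± 0.07 in uninephrectomized and -0.67 ± 0.07 in sham dogs, and UCHL5, the family member bound to the proteasome, by -0.26 ± 0.07 and -0.24 ± 0.07. These relatives were lower in atrium, whereas the called UCHL1 probe set was higher. RPS27A, a ubiquitin fusion gene, was higher by 0.40 ± 0.08 and 0.29 ± 0.08. The widest SD in the list was 0.200 (BAP1), against 1.65 for UCHL1.

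Of 21 protein kinase A subunit and anchor genes beside RIIAD1, 17 were tested and none was called after uninephrectomy. In atrium against ventricle 5 were higher and 3 lower in uninephrectomized dogs, and 4 higher and 3 lower in sham dogs, beside 27.3% and 20.8% of all tested probe sets called in these comparisons. PRKAR2B, a regulatory subunit of type RII, was higher by 0.82 ± 0.26 in uninephrectomized and 1.10 ± 0.26 in sham dogs, and PRKACB, a catalytic subunit, differed by -1.35 ± 0.40 and -1.39 ± 0.40. SPA17, which carries an RII-like domain as RIIAD1 does, was higher by 1.30 ± 0.35 in uninephrectomized dogs. The widest SD was 0.681 (PRKACB), against 1.30 for RIIAD1.

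For each gene the 5 genes most like it were found by the Pearson correlation of deviations from the group means over the 20 arrays. These values describe the arrays, and each rests on the 2 or 4 arrays that stand apart. Each gene stands by its tested probe set with the highest correlation, and any others are not given here. For AMPD1 the genes were MTX1 (0.97), RIIAD1 (0.96), PDCD5 (0.89), CTNNA3 (0.89) and ODR4 (0.87). MTX1 and ODR4 had 2 tested probe sets each, PDCD5 had 5 and CTNNA3 had 4. MTX1 read 7.63 on sham atrial array 2 and 7.58 on sham ventricular array 2, with 4.61 to 5.51 on the other 18. PDCD5 read 4.68 and 5.14 on that pair and 3.50 to 4.07 on the others, and CTNNA3 read 3.66 and 5.46 with 1.73 to 3.10 on the others. ODR4 read 6.59 and 5.37, with 5.40 on uninephrectomized atrial array 4, so it alone of these overlapped. For RIIAD1 the list was AMPD1 (0.96), MTX1 (0.94), ODR4 (0.90), PDCD5 (0.88, in another probe set than for AMPD1) and ANKLE2 (0.82).

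**Figure D5:**
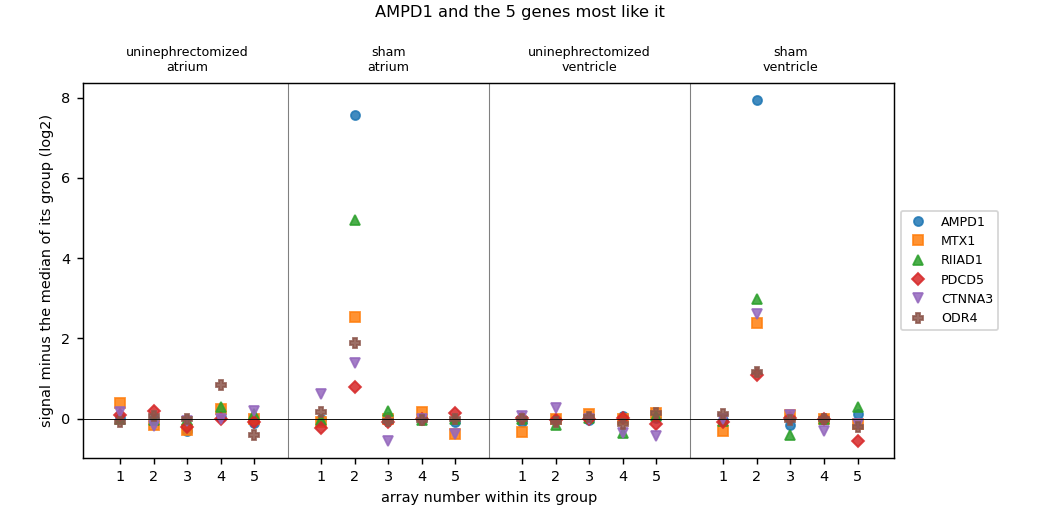
Signal minus the median of its group (log2) on each of the 20 arrays for AMPD1 and the 5 genes whose deviations correlate best with it. Columns are uninephrectomized atrium, sham atrium, uninephrectomized ventricle and sham ventricle. All 6 genes lie above their group median on sham array 2 of both chambers, AMPD1 by the most.

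For DECR1 the most alike genes were TMEM260 (0.93), LSM14A (0.88), LOC480510 (0.87), PSIP1 (0.84) and CTNNAL1 (0.84), with SDs of 0.14 to 0.46. TMEM260 read 5.81, 5.25, 5.67 and 5.26 on the 4 arrays where DECR1 was low (uninephrectomized atrial 1, sham atrial 1, uninephrectomized ventricular 3 and sham ventricular 1) and 6.04 to 6.76 on the other 16. For UCHL1 they were DMAC2L (0.88), MIA2 (0.87), LIAS (0.86), SRD5A1 (0.85) and LOC486776 (0.85), with SDs of 0.15 to 0.32. For TRIO they were BSCL2 (0.83), TADA3 (0.82), DNAH1 (0.81), SLA (0.80) and PIM1 (0.79), with SDs of 0.13 to 0.34. The SDs of DECR1, UCHL1 and TRIO themselves were 2.27, 1.65 and 2.47. By Spearman's rank correlation in place of Pearson's, 4 of the 5 genes were shared for AMPD1, 3 for RIIAD1 and 0 for DECR1, UCHL1 and TRIO.

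The tested genes next to the 5 in the genome were not seen to share the switch, but most neighbours had no tested probe set. Order was read from RefSeq's gene table of the gray wolf assembly mCanLup2.hap1, taking the 3 annotated genes on each side. Beside DECR1, CALB1 ran from 1.74 to 2.04 on all arrays, so low that a drop like that of DECR1 could not have shown. Beside AMPD1, the widest probe set of NRAS ran from 1.70 to 2.37 and that of DENND2C from 2.20 to 3.45. Beside UCHL1, APBB2 ran from 2.75 to 5.65 and its deviations correlated with those of UCHL1 at 0.10, and beside TRIO, OTULINL ran from 1.83 to 2.83. Beside RIIAD1, MRPL9 ran from 6.89 to 7.29, OAZ3 from 2.61 to 3.36 and CELF3 from 1.88 to 2.36. AMPD1 and RIIAD1 lie on the same chromosome of that assembly with 271 annotated genes between them, of which 79 had tested probe sets. Of those 143 probe sets 0 had sham array 2 at least 3 log2 units above the others in both chambers, and their median SD was 0.200. Among all tested probe sets only 1, that of AMPD1, had it that far above, and that of RIIAD1 did not. The count of 0 therefore cannot show whether the stretch between them shared the switch. LIAS lies on the same chromosome as UCHL1 with 26 annotated genes between them.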

How the data were processed

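Heart tissue was collected 12 weeks after surgery, and per the labels' protocols its RNA was isolated with Trizol, with 100 ng of it entering the IVT Express labelling. The deposited values are log2 signals of 43035 probe sets on 20 arrays, and they were used as deposited, since their summarization and normalization are not given in the sources used here. Left out of the tests were 111 controls and, of the rest, the 30% with the lowest mean (under 1.87), so that 30047 remained. A probe annotation table gave 1 symbol for 29264 probe sets and several for 439, and 13332 were not in it. RefSeq's wolf gene table served for gene order only.

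Each comparison was a contrast of 4 group means fitted with limma 3.58.1 (R 4.3.3; lmFit, eBayes, 16 residual degrees of freedom, two-sided). P-values were adjusted by Benjamini-Hochberg over all tested probe sets, and a call is an adjusted p under 0.05. The fit was also run on simulated data with independent normal noise. These data held no on-off values and no pairing of arrays, so they do not bear on probe sets like those of the 5 genes. With 5 arrays per group, 1 per sample, p-values measure the spread between samples, and the number of arrays limits the precision. Other values were computed in Python 3.11.15 with pandas 2.3.3.

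The 5 genes and the gene lists were chosen with earlier results of these data known. All probe sets of the 5 genes are given, and the one with the widest SD about the group means stands for its gene. A gene of the lists stands by its tested probe set with the highest mean. One gene list set beside TRIO is not reported here. The most alike genes are the 5 with the highest Pearson correlation, neighbours are the 3 annotated genes on each side, and the list members named are called ones with large differences, at most 3 per direction, list and comparison. The 3' gap averages ACTB 3' minus middle, GAPDH 3' minus 5' and EEF1A 3' minus middle control signals.

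Whether equal array numbers pair the chambers was checked from the data over 30037 probe sets, without those of the 5 genes, since the labels do not say. Sham deviations of the same number correlated at 0.194 to 0.453, and those of different number at -0.283 to 0.0968, so the sham numbers were taken as pairs and the blocked values are given where they change a call. Alternatives were the filter, quantile and median normalization, limma's trend and robust options, the 3' gap as a covariate, the block, 2 groups alone, each array left out in turn and Spearman correlation. Leaving out pairs of sham arrays was added after the data were seen.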

Additional observations from a re-analysis of the deposited data

Results flagged for a closer look

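In groups of 5 arrays, a value is given here when its gap to the nearest other array is over 0.71 of the group's range. Chance gives such a gap in about 1 of 20 groups. Of the 48 groups of values of the 12 probe sets, 17 had one, which follows from the choice of genes for their spread.

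For DECR1 the array far from the others of its group was a low one. In the wider probe set it was uninephrectomized atrial array 1 at 5.20, sham atrial array 1 at 5.01, uninephrectomized ventricular array 3 at 5.40 and sham ventricular array 1 at 5.69. In the other probe set it was sham atrial array 1 at 5.49 and sham ventricular array 1 at 6.92; in the uninephrectomized groups array 3 of the atrium (9.41) and array 1 of the ventricle (9.67) lay closer to the low array, and the gap missed the limit.

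For AMPD1 sham array 2 stood above the others, at 9.14 in atrium and 9.57 in ventricle. RIIAD1 had the same arrays apart, at 7.05 in atrium and 5.21 in ventricle. The bright UCHL1 probe set had sham array 5 below the others, at 3.34 in atrium and 3.71 in ventricle.

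For the on-off TRIO probe set the high arrays were uninephrectomized atrial array 2 at 7.22, sham atrial array 5 at 6.93, uninephrectomized ventricular array 4 at 7.60 and sham ventricular array 5 at 7.98. Uninephrectomized atrial array 2 also stood apart in the TRIO probe set of middle signal, at 5.98 against 4.45 on the next array.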

How the results depend on the processing

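The counts of probe sets called kept within 1.5 times under the filters, the normalizations, limma's trend and robust options, the 3' gap covariate, 2 groups alone and both block fits, in all 4 comparisons. The exception was uninephrectomized against sham ventricle, with 4 calls when both sham arrays 1 were left out, a choice made after the data were seen. Both block fits joined equal numbers of uninephrectomized dogs, which were not taken as pairs. The fixed block also joined equal numbers across the operations, where the dogs differ. The SDs of the 5 genes moved little with quantile normalization, to 1.29 for RIIAD1 and 2.27 for DECR1. On leaving out 1 array in turn the counts were 0 to 1 for surgery in atrium (1 without sham atrial array 5), 0 to 4 for surgery in ventricle (4 without sham ventricular array 1, 1 without uninephrectomized ventricular array 1 and 1 without array 4), 7046 to 8433 for the chambers of uninephrectomized dogs and 5244 to 6345 for those of sham dogs.

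Many of the uncalled differences changed sign on leaving out 1 array, but not that of UCHL1 for surgery in atrium (0.051 to 1.64) and for the chambers of uninephrectomized dogs (1.37 to 1.71), nor that of RIIAD1 for surgery in ventricle (-0.93 to -0.085) and for the same chambers (0.030 to 0.14). Leaving out 1 array moved uninephrectomized minus sham atrium over -1.56 to 0.45 for DECR1, -1.86 to 0.047 for AMPD1, -1.18 to 0.90 for TRIO and -1.17 to 0.069 for RIIAD1. In ventricle the ranges were -1.64 to 0.33 for DECR1, -2.03 to 0.00084 for AMPD1, -0.48 to 0.69 for UCHL1 and -1.25 to 1.08 for TRIO. Atrium minus ventricle in uninephrectomized dogs ran over -1.25 to 0.62 for DECR1, -0.026 to 0.063 for AMPD1 and -1.28 to 0.94 for TRIO. In sham dogs it ran over -1.47 to 0.64 for DECR1, -1.63 to 1.47 for AMPD1, -0.11 to 1.89 for UCHL1, -1.21 to 0.98 for TRIO and -0.66 to 0.92 for RIIAD1. With the 3' gap as a covariate DECR1 changed sign, to 0.064 for surgery in atrium, 1.08 for surgery in ventricle and 0.96 for the sham chambers. With both sham arrays 2 left out, AMPD1 was 0.047 for surgery in atrium and 0.00084 in ventricle, and RIIAD1 was 0.069 for surgery in atrium and -0.057 for the sham chambers. With both sham arrays 5 left out, TRIO was 0.90 for surgery in atrium and 1.08 in ventricle, and UCHL1 was -0.48 in ventricle. The call of the TRIO probe set of middle signal in sham dogs was lost with no filter (adjusted p 0.0619) and with both sham arrays 1, 2 or 5 left out (0.0641, 0.221 and 0.0802). Beyond the arrays named as left out, the cause was not tested.

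Uninephrectomized arrays of the same number correlated at -0.237 to 0.115, with 1 of 5 pairs over 0.1 and 0 of 5 atrial arrays closest to their own number, so these numbers were not taken as pairs. As a hint from the data only, atrial arrays 1 to 5 correlated best with ventricular arrays 3 (0.43), 4 (0.32), 1 (0.17), 5 (0.54) and 2 (0.30), without the probe sets of the 5 genes. DECR1 stood apart on the first of these pairs and TRIO on the next. With the number as a fixed replicate block the chamber comparisons called 6686 probe sets in uninephrectomized and 5968 in sham dogs, and with a random replicate block 9010 and 7035. In uninephrectomized dogs the fixed block, on numbers not taken as pairs, gave the bright UCHL1 probe set an adjusted p of 0.0115 in limma. In sham dogs the fixed block changed no call of the 5 genes beyond those given with the comparison.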

Other observations

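Besides the probe sets of DECR1, AMPD1, UCHL1 and TRIO, 6 further probe sets had a sham number at least 3 log2 units apart in both chambers, 2 of them with a symbol. They were chosen after their values were seen, and their values are given as a description.

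NLN, which encodes the peptidase neurolysin, was high where DECR1 was low. One of its 3 probe sets read 7.06 on uninephrectomized atrial array 1, 7.13 on sham atrial array 1, 6.85 on uninephrectomized ventricular array 3 and 7.75 on sham ventricular array 1, and 3.11 to 4.75 on the other 16 arrays. Over 20 arrays its deviations correlated with those of DECR1 at -0.956. The other NLN probe sets, with means of 2.84 and 1.48, ran from 2.26 to 3.83 and from 1.33 to 1.58. A probe set without a symbol, at -0.810 with DECR1, read 10.89, 11.05, 10.46 and 10.58 on the same arrays. It was also high where DECR1 was not low, on uninephrectomized atrial arrays 3 and 5 (10.84 and 9.94) and ventricular arrays 1 and 2 (10.56 and 9.39). On the remaining arrays it read 5.41 to 7.38.

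CUL1, the scaffold of SCF ubiquitin ligases, stood apart on a sham number that none of the 5 genes marked. One of its 4 probe sets read 8.01 on sham atrial array 3 and 7.93 on sham ventricular array 3, and 3.40 to 5.18 on the other arrays. The brightest CUL1 probe set ran from 9.04 to 9.87. A probe set without a symbol read 6.10 on sham atrial array 3 and 6.38 on sham ventricular array 3, and 1.53 to 1.93 on the other arrays.

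A pair of probe sets without a symbol was low on arrays that DECR1 and AMPD1 also marked. One of them read 2.96 on uninephrectomized atrial array 1, 6.02 on sham atrial array 2, 2.32 on uninephrectomized ventricular array 3 and 3.70 on sham ventricular array 2, and the other read 3.85, 6.57, 3.46 and 4.95 on the same arrays. On the other 16 arrays the lowest values were 8.34 and 8.55. On sham arrays 1, where DECR1 was low, both read over 10 in each chamber.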
